A study of Mus musculus with 6 samples.

Results

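Chemokines are small secreted proteins that direct the movement of leukocytes, and chemokine receptors are the receptors on those cells that read them. The genes described here are the protein-coding genes of the count table whose symbols are those of the CC, CXC, CX3C and XC chemokines, their receptors and the atypical chemokine receptors, chosen by name alone. There were 62 of them among the 57180 genes listed, 39 ligands and 23 receptors. The RNA came from inguinal white adipose tissue (iWAT), the fat depot under the skin of the groin, of wild-type (WT) mice that had become obese on high-fat food. Mice in the ADISSP group (3 libraries) were given recombinant Adissp, a protein secreted by fat cells, at 68 nmol/kg every day over 33 days, and the Control group had 3 libraries. The labels give neither the agent the controls received nor the age or sex of the animals, and they call the libraries biological triplicates.

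Chemokines are commonly sorted by how they are made. Homeostatic chemokines are produced without a stimulus and lay out lymphoid tissue: CCL19 and CCL21 lead T cells and dendritic cells, through CCR7, into the T cell zone of a lymph node, CXCL13 leads B cells, through CXCR5, into follicles, and CXCL12 holds CXCR4-bearing cells in bone marrow and lymphoid tissue. Inflammatory chemokines such as CCL2, CCL5, CXCL9 and CXCL10 are induced by cytokines and draw monocytes, neutrophils and effector T cells through CCR2, CXCR2, CXCR3 and other receptors. The inguinal fat pad of the mouse holds a lymph node, and obese adipose tissue is known for recruiting monocytes through CCL2 and CCR2. Atypical receptors bind chemokines without driving migration, and they take up or carry their ligands.

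The libraries held 10357930 to 15658428 counts, and a floor of 3 counts corresponded to 0.165 to 0.331 counts per 1000000 (CPM, scaled as described with the processing). Fat cell genes were high in every library, with 5 markers summing to between 6197 and 8559 CPM. Control 3 stood apart from Control 1 and 2. The summed level of 5 skeletal muscle genes was 27.4 and 34.7 CPM in Control 1 and 2, 8044 CPM in Control 3, and 2561, 3101 and 3035 CPM in ADISSP 1, 2 and 3. The summed level of 8 B cell markers, among them Ms4a1 and Cr2, was 593, 761 and 130 TPM (a relative abundance which takes gene length into account) in Control 1, 2 and 3 and 5.64, 9.35 and 8.81 TPM in ADISSP 1, 2 and 3. For these reasons the chemokine and receptor genes that passed a test, and the pathway genes named, are also given with Control 3 as the only control, where the spread comes from the ADISSP libraries alone.

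Of the 62 genes, 58 had a count and 41 had enough counts to be tested. In the quasi-likelihood test of edgeR, with p-values adjusted by Benjamini-Hochberg over 17320 genes and a threshold of 0.05, 18 of the 41 fell (43.9%) and 3 rose (7.32%) in ADISSP. Over all genes tested, 16.5% fell and 18.5% rose. The median log2 fold change of the 41 was -0.65, and that of all genes tested was -0.01. The genes that fell were 10 ligands and 8 receptors, among them all 7 tested ligands and receptors of lymph node homeostasis. Of the 18 inflammatory ligands and receptors tested, 3 fell and 1 rose. The ADISSP libraries were all below the Control libraries in 17 of the 41 (23.7% of all genes) and all above them in 6 of the 41 (26.1% of all genes). With Control 3 as the only control, 12 of 42 tested were lower (28.6%, against 7.12% of all genes) and 3 were higher (7.14%, against 10.3%), and the median log2 fold change of the 41 was 0.03.

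The excess of falls depended on the scaling. With library totals in place of TMM factors 20 of the 41 were lower (48.8%, against 38.1% of all genes), and with limma on log2(TPM + 1) 21 were lower (51.2%, against 55.0%) and 2 higher (4.88%, against 7.44%), so that on the TPM scale the share of falls was near that of all genes. Shares on log2(TPM + 0.1) were the same, against 54.7% lower and 7.38% higher. DESeq2 put 19 lower (46.3%, against 17.2%) and 4 higher (9.76%, against 17.5%). With the replicate number as a block 18 were lower (against 15.0%), and without a filter on low counts 20 of 58 were lower (34.5%, against 10.4%). When a single library was left out, the number lower ran from 13 of 43 without ADISSP 1 (30.2%, against 9.17%) to 24 of 44 without Control 3 (54.5%, against 23.1%).

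**Figure D1:**
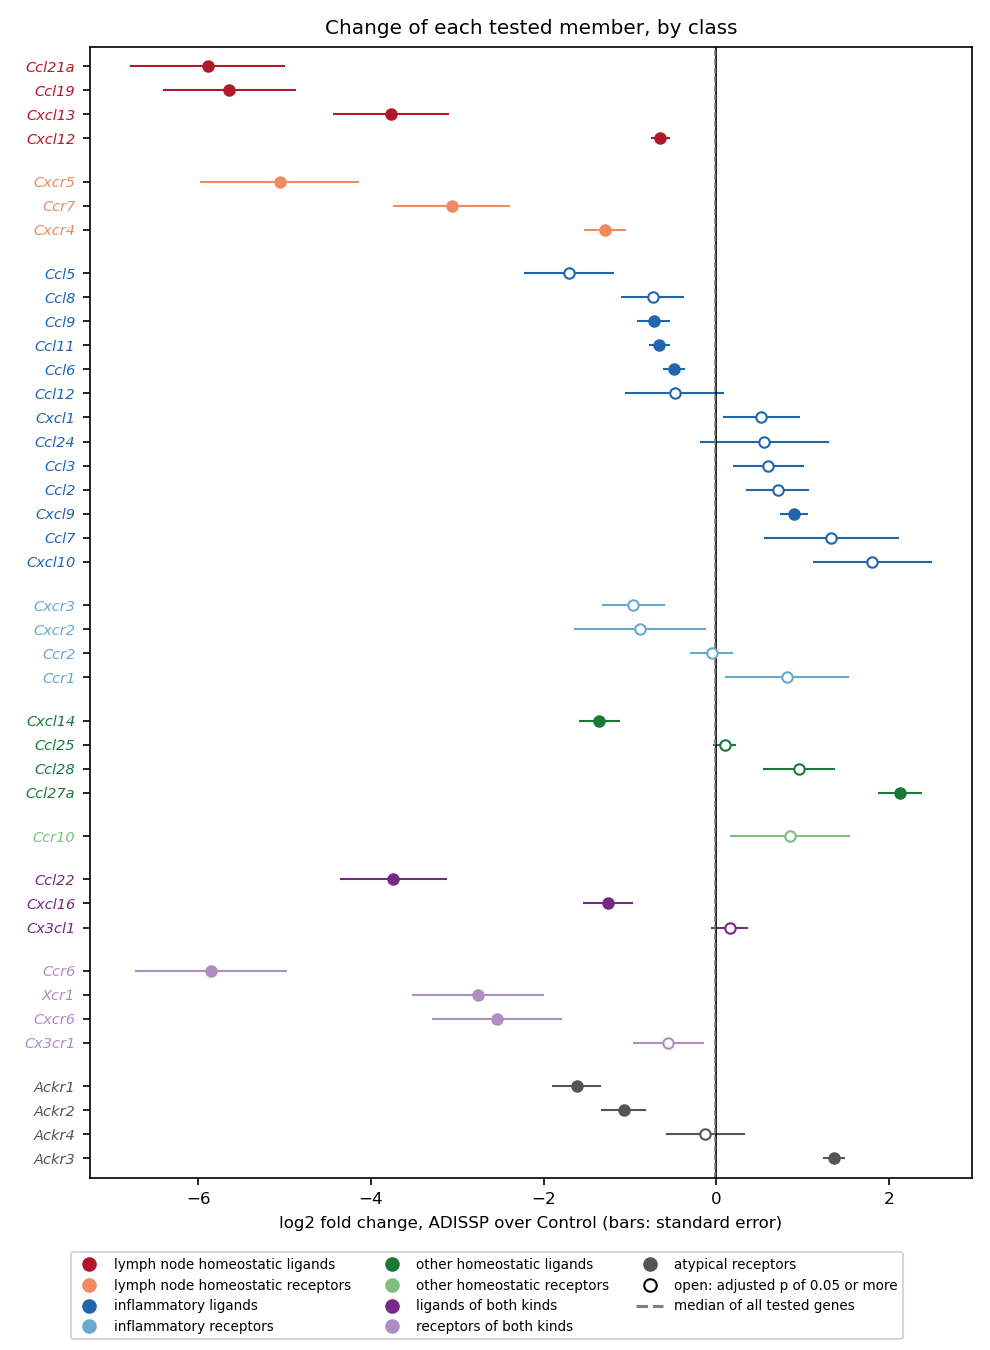
Log2 fold change (ADISSP over Control) of 40 of the 41 tested genes, grouped by class, with bars for the standard error. Filled points have an adjusted p under 0.05 and open points do not, and the dashed line is the median of all genes tested. All 7 genes of lymph node homeostasis (top groups) lie left of 0, from -5.89 for Ccl21a to -0.65 for Cxcl12, while the inflammatory ligands lie on both sides.

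The promoters of 5 ligands are shown to set the lymph node ligands that fell most (Ccl19, Ccl21a, Cxcl13) beside a neighbouring pair of interferon-inducible ligands (Cxcl9, Cxcl10). The sequences are from RefSeq on GRCm38.p6, which is an older build than that of the counts, and each runs from 250 bases before to 50 bases after the start of the gene, 5′ to 3′ on its own strand. Capitals mark matches on either strand to the κB site, which NF-κB factors bind, to the core of the interferon-stimulated response element (GAAA and GAAA with any 2 bases between), to TTCNNNGAA, the gamma-activated site, and to TATAAA, the TATA box.
Ccl19 promoter, chr4:42756316-42756615, minus strand: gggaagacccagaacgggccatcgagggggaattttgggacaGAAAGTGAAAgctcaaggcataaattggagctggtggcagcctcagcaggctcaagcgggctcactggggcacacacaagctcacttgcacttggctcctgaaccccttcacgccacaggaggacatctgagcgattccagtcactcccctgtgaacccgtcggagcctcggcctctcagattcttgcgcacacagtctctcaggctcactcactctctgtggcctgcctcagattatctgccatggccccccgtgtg
Ccl21a promoter, chr4:42773942-42774241, minus strand: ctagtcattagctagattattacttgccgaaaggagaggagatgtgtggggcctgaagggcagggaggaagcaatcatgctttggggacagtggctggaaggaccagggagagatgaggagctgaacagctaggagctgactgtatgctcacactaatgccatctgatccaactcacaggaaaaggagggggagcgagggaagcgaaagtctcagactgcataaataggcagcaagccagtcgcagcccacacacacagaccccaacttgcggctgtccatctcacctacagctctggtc
Cxcl13 promoter, chr5:95956689-95956988, plus strand: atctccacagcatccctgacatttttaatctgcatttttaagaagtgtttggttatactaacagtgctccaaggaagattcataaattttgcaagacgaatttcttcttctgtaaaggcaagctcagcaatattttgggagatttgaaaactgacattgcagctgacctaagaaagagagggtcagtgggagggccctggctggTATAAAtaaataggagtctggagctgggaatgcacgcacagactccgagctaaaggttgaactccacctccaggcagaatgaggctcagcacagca
Cxcl9 promoter, chr5:92328030-92328329, minus strand: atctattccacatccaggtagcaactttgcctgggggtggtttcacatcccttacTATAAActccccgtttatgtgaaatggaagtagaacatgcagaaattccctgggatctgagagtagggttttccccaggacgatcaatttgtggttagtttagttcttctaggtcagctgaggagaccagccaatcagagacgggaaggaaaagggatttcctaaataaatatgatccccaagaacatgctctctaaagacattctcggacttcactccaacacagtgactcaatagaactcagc
Cxcl10 promoter, chr5:92348840-92349139, minus strand: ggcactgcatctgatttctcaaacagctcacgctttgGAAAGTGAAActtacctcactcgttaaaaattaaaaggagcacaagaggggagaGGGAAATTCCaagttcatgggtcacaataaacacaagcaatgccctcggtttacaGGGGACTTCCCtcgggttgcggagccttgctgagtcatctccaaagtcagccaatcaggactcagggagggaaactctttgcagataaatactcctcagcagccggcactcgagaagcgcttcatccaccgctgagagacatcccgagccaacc
The Cxcl10 window held 3 κB matches, of which a pair overlap, and GAAAGTGAAA, the same letters that the Ccl19 window held. The Ccl21a window held none of the 4 motifs. Promoters were found for 47 of the 62 genes, with 54 windows in all. The κB site was in those of 12 of the 47, the interferon element core in 3, the gamma-activated site in 4 and the TATA box in 15. Over all 32544 promoters of this length the shares holding them were 8.49%, 3.45%, 8.33% and 13.6%. These shares are per promoter, while a gene with several windows was counted when any of them held a match. A match is a run of letters and not a measured binding site.

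Among the ligands of lymph node homeostasis, Ccl21a and Ccl19, both ligands of CCR7, and Cxcl13, the ligand of CXCR5, stood at 1.21 CPM or less in every ADISSP library. Ccl21a (ENSMUSG00000094686, GRCm39 chr4:42772860-42773993, minus strand) stood at 42.7, 72.0 and 13.2 CPM in Control 1, 2 and 3 and at 0.475, 1.21 and 0.568 CPM in ADISSP 1, 2 and 3. Every ADISSP library was far below the lowest control, which was Control 3. Its log2 fold change was -5.89 (SE 0.90, adjusted p = 0.0077). Ccl19 (chr4:42754525-42756577, minus strand) stood at 5.60, 6.31 and 1.91 CPM in Control and at 0.158, 0.110 and 0 CPM in ADISSP, in the same order. ADISSP held 3 counts of it in all, so that the Control level was 57.1-fold higher with an exact 95% counting interval of 19.3 to 279, and its adjusted p was 0.000971.

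Cxcl13 (chr5:96104810-96108927, plus strand) was at 15.7, 14.6 and 3.21 CPM in Control and at 0.870, 0.883 and 0.710 CPM in ADISSP. The groups did not overlap, and Control 3 lay between Control 1 and 2 and the ADISSP libraries. The log2 fold change was -3.77 (SE 0.67, adjusted p = 0.00683). Cxcl12 (chr6:117145496-117158328, plus strand), which stromal cells of many tissues make, had 155, 172 and 139 CPM in Control and 92.2, 107 and 99.5 CPM in ADISSP. It also fell, by much less than the other 3, with a log2 fold change of -0.65 (SE 0.11, adjusted p = 0.00268), and here Control 3 was close to Control 1 and 2. All 4 ligands were lower also against Control 3 alone, with log2 fold changes of -4.20 (Ccl21a), -4.35 (Ccl19), -1.97 (Cxcl13) and -0.49 (Cxcl12) and adjusted p of 9.43e-06, 0.00962, 0.0176 and 0.0128. Mice carry near-identical copies of Ccl21a, and reads that match several copies may be split or dropped: Ccl21b had 3 counts over the 6 libraries and Ccl21d had 0. Ccl19 and Ccl21a both lie within the antisense transcript 4930578G10Rik, which had 0.441 to 2.45 CPM and did not pass (log2 fold change 0.19).

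Their receptors fell too. Cxcr5, the follicle-homing receptor of B cells, was at 18.7, 20.3 and 3.41 CPM in Control and at 0.158, 0.441 and 0.639 CPM in ADISSP. The log2 fold change was -5.06 (SE 0.92, adjusted p = 0.0102), and the call was lost without ADISSP 1 (adjusted p = 0.0523). Against Control 3 alone it was -3.01 (adjusted p = 0.00521). Ccr7, the receptor of CCL19 and CCL21, was at 16.1, 21.0 and 4.43 CPM in Control and at 0.870, 1.99 and 2.13 CPM in ADISSP. The groups did not overlap, yet its call was the least secure of this class. Its log2 fold change was -3.06 (SE 0.68, adjusted p = 0.0178), with adjusted p of 0.0532 to 0.0686 when Control 1 or any ADISSP library was left out, 0.0702 without a filter on low counts and 0.0606 against Control 3 alone. Cxcr4, the receptor of CXCL12 on most leukocytes, was at 16.4, 18.1 and 11.7 CPM in Control and at 4.43, 7.06 and 7.53 CPM in ADISSP. It fell by 1.29 on the log2 scale (SE 0.24, adjusted p = 0.00421), and by 0.89 against Control 3 alone, where it did not pass (adjusted p = 0.0588).

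**Figure D2:**
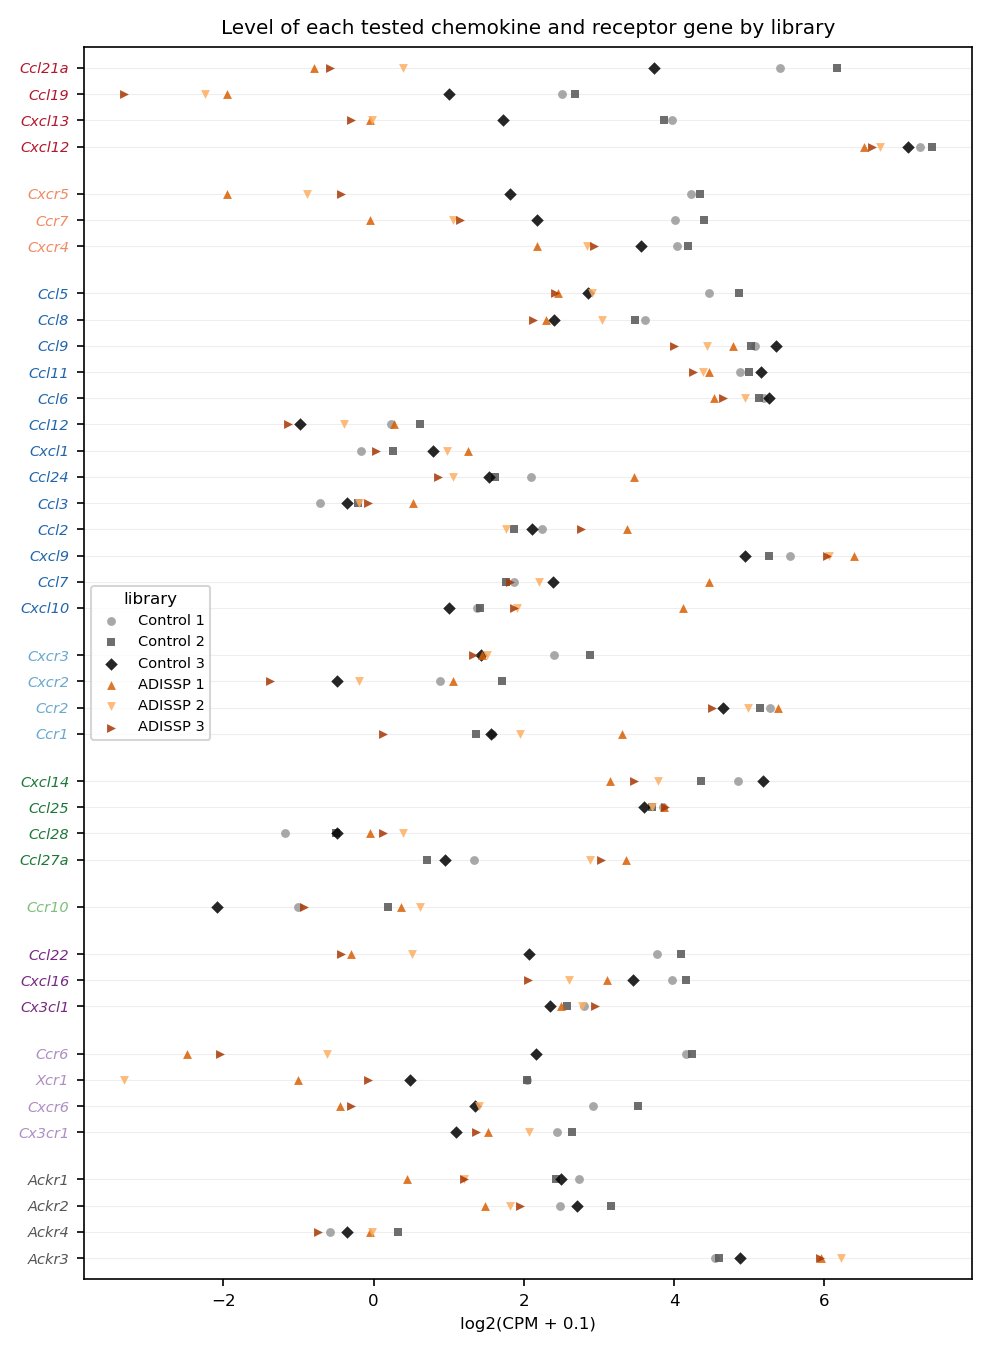
Level of 40 of the 41 tested genes in every library, as log2(CPM + 0.1), with Control libraries in grey and black and ADISSP libraries in orange. For Ccl21a, Ccl19, Cxcl13, Cxcr5 and Ccr7 the black diamond (Control 3) lies between Control 1 and 2 and the ADISSP libraries, as at 13.2 CPM for Ccl21a, while for Cxcl12 and Ackr1 it lies with the other controls.

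Markers of lymph node cells were also lower in ADISSP. All 8 B cell markers and all 10 T cell markers fell, against 16.5% of all genes. Their median log2 fold changes were -5.52 and -2.92, and smaller against Control 3 alone, at -3.73 and -1.16. The T cell markers summed to 367, 560 and 124 TPM in Control 1, 2 and 3 and to 39.2, 37.8 and 35.9 TPM in ADISSP. Of 5 genes of lymph node vessels and stroma, Glycam1, a product of the venules by which lymphocytes enter a node, was at 5.15, 7.08 and 2.11 CPM in Control and at 0 in every ADISSP library, at least 59.2-fold lower when the group is put at a floor of 3 counts. Chst4 and Madcam1, of the same venules, were also at 0 in all 3 ADISSP libraries, with 0.0549 to 0.933 CPM in Control. The rest of the list, Fut7 and Il7, had counts in every library. Of the 5 genes 3 were tested, of which 2 fell and 1 did not pass. Their log2 fold changes ran from -9.11 to -0.86, with a median of -0.97 (-0.71 against Control 3 alone). In bulk tissue, fewer cells of a type and less RNA per cell cannot be told apart, and the part of the lymph node in the dissected tissue in these results was not tested.

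The summed level of the lymph node ligands was 377, 552 and 147 TPM in Control 1, 2 and 3 and 36.3, 41.3 and 39.6 TPM in ADISSP. In Control, Ccl21a had the highest mean of all the chemokine and receptor genes per length, at 213 ± 154 TPM (SD, n = 3), and made up 16.5% of their summed TPM. That mean rests on Control 1 and 2 (210 and 369 TPM): in Control 3 Ccl21a was at 60.3 TPM, below Ccl11 (131 TPM), Ccl6 (84.9 TPM), Cxcl14 (78.4 TPM) and Cxcl12 (67.3 TPM). In ADISSP it had 2.41 ± 1.18 TPM, or 0.466% of the sum, and rank 30. Next in Control came Ccl11 (126 ± 9.01 TPM), Ccl5 (87.5 ± 53.5 TPM), Ccl6 (86.4 ± 1.28 TPM) and Cxcl12 (80.9 ± 13.3 TPM). The SD of Ccl21a spans the mean of Ccl11, and the SDs of Ccl5, Ccl6 and Cxcl12 overlap, so these neighbours do not differ beyond their spread. In ADISSP the order began with Cxcl9 (67.8 ± 10.2 TPM), Ackr3 (55.6 ± 3.83 TPM), Ccl11 (53.6 ± 3.46 TPM) and Ccl6 (41.3 ± 4.84 TPM). In ADISSP 2 Ackr3 was just above Cxcl9 (59.8 TPM), and the SD of Ackr3 overlaps that of Ccl11. The place of Ackr3 among these 3 is therefore not fixed beyond their spread, while Cxcl9 was above Ccl11 in every ADISSP library.

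**Figure D3:**
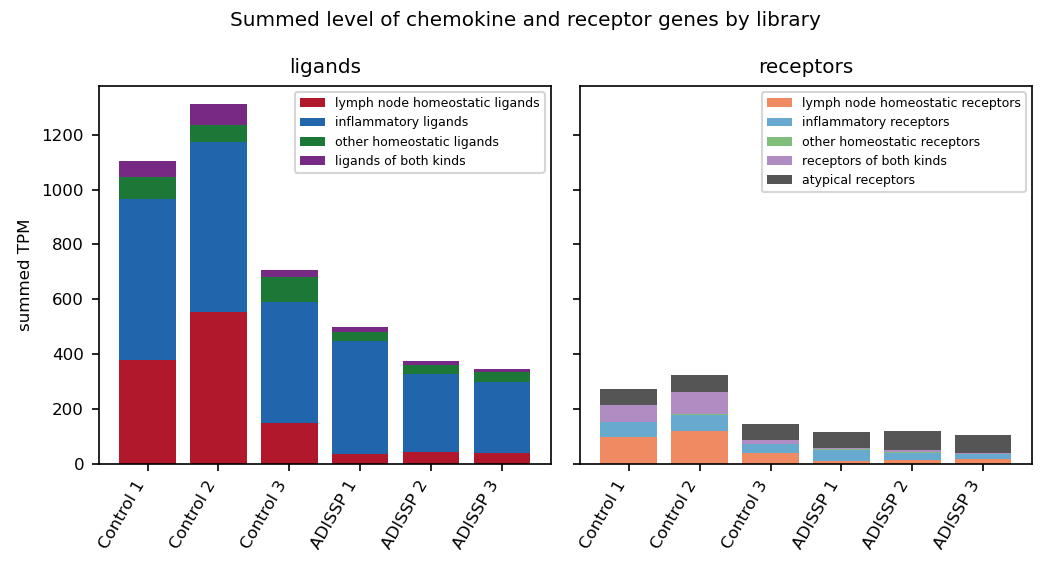
Summed TPM of the ligand genes (left) and the receptor genes (right) in each library, with the classes stacked. The stack of the lymph node ligands (red) was tallest in Control 1 and 2 (377 and 552 TPM) and lowest in the ADISSP libraries (36.3 to 41.3 TPM), with Control 3 between them at 147 TPM.

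The inflammatory ligands did not move together. Of 13 tested, Ccl11, Ccl6 and Ccl9 fell (23.1%, against 16.5% of all genes), Cxcl9 rose (7.69%, against 18.5%) and 9 did not pass. Their median log2 fold change was 0.52 (-0.45 on log2(TPM + 1)). Without ADISSP 1, Ccl24 moved to -0.84 and Ccl7 to -0.0043, while Ccl2, Ccl3, Cxcl1, Cxcl9 and Cxcl10 stayed above 0. The sign of the median therefore also rested on ADISSP 1. Without ADISSP 3 the falls among inflammatory genes came to 1 (9.74% of all genes were lower then) and the rises to 2 (14.4%), and without ADISSP 2 the rises were also 2 (13.6%). Cxcl9, which recruits CXCR3-bearing T cells and is induced by interferon gamma, was at 46.6, 38.3 and 30.8 CPM in Control and at 84.2, 66.9 and 65.7 CPM in ADISSP. All 3 ADISSP libraries were above all 3 controls. The log2 fold change was 0.90 (SE 0.16, adjusted p = 0.00391), and 1.23 against Control 3 alone (adjusted p = 0.000265). On log2(TPM + 1), where the median of all genes moved to -0.51, its difference was 0.33 and did not pass (adjusted p = 0.161 by limma). Cxcl10, its neighbour on chromosome 5 and a ligand of the same receptor, was at 2.49, 2.58 and 1.91 CPM in Control and at 17.3, 3.64 and 3.55 CPM in ADISSP. Every ADISSP library was above the controls, but ADISSP 1 was far above the other two, and the log2 fold change of 1.81 (SE 0.69) did not pass (adjusted p = 0.0900). DESeq2 gave it an adjusted p of 0.00559. Cxcl10 lies within Art3 on the opposite strand, which held 166 to 268 CPM, so that part of its counts may be from Art3.

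Ccl11, the eosinophil attractant eotaxin, was at 29.2, 32.0 and 35.7 CPM in Control and at 21.9, 20.7 and 18.9 CPM in ADISSP. It fell by 0.66 on the log2 scale (SE 0.12, adjusted p = 0.00389), with no overlap of the groups and with Control 3 as the highest library. Ccl6, a macrophage chemokine of the mouse, was at 36.7, 34.9 and 38.5 CPM in Control and at 23.1, 30.8 and 25.0 CPM in ADISSP. Its log2 fold change was -0.48 (SE 0.13, adjusted p = 0.0183), and it did not pass without Control 1, ADISSP 1 or ADISSP 3 (adjusted p = 0.0562, 0.0743 and 0.0736). Ccl9, its neighbour and a ligand of CCR1, was at 33.8, 32.5 and 40.8 CPM in Control and at 27.4, 21.5 and 16.0 CPM in ADISSP. It changed by -0.72 (SE 0.19, adjusted p = 0.0201) and did not pass without ADISSP 2 or ADISSP 3 (adjusted p = 0.0759 and 0.0549). These 3 ligands were lower against Control 3 alone as well, with log2 fold changes of -0.81, -0.56 and -0.92 and adjusted p of 0.00415, 0.0426 and 0.0373. Macrophage markers, which can share the source of Ccl6 and Ccl9, fell in 7 of 8 cases with a median log2 fold change of -0.93, and their summed level was 591 to 635 CPM in Control and 277 to 345 CPM in ADISSP; their part in these results was not tested.

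Ccl2, the monocyte attractant, was at 4.64, 3.57 and 4.23 CPM in Control and at 10.3, 3.31 and 6.67 CPM in ADISSP. The groups overlapped, since ADISSP 2 was below every control, and the log2 fold change of 0.71 (SE 0.37) did not pass (adjusted p = 0.163). Without ADISSP 2 it was 1.04 and passed (adjusted p = 0.0299 by edgeR), and without ADISSP 1 it was 0.30 and did not pass (adjusted p = 0.551). Ccl5, which T cells and other leukocytes release, was at 21.9, 29.1 and 7.16 CPM in Control and at 5.38, 7.39 and 5.25 CPM in ADISSP. Control 3 lay among the ADISSP libraries. Its log2 fold change of -1.71 (SE 0.52) was just outside the threshold (adjusted p = 0.0515); it was -2.11 without Control 3 (adjusted p = 2.84e-06) and -0.27 against Control 3 alone (adjusted p = 0.614). Ccl5 passed in DESeq2 (adjusted p = 0.00021) and with the replicate number as a block (adjusted p = 0.0258). Cxcl1, a neutrophil attractant, was at 0.792, 1.10 and 1.64 CPM in Control and at 2.29, 1.88 and 0.923 CPM in ADISSP, with overlapping groups and a log2 fold change of 0.52 (SE 0.44, adjusted p = 0.390).

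The other inflammatory ligands tested were Ccl3, Ccl7, Ccl8, Ccl12 and Ccl24, with log2 fold changes from -0.74 (Ccl8) to 1.33 (Ccl7), and none passed. A single library set several of these values. ADISSP 1 had at least 2 times the higher of ADISSP 2 and 3 in 5 of the 41 genes, namely Ccl24, Ccl7, Cxcl10, Ccr1 and Cxcr2, against 1.39% of all genes tested. Ccl7, a monocyte attractant, was at 22.1 CPM in ADISSP 1 and at 3.29 to 5.12 CPM in the other 5 libraries. Csf3r, a neutrophil marker, was also highest there, at 24.2 CPM in ADISSP 1 and 4.97 to 11.8 CPM elsewhere, while Ly6g was at 0 in all 6 libraries. Of 6 neutrophil markers 2 were tested and 0 passed. The log2 fold change was 0.92 for Csf3r and -1.02 for the other, in which every ADISSP library was below the controls. The part of neutrophils in these values was not tested. Ccl8 passed without Control 3 (-1.04, adjusted p = 0.00437).

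Of the 5 inflammatory receptors tested, 0 passed in edgeR and 0 in DESeq2, and 1 (Cxcr3) had an unadjusted p under 0.05. Ccr2, the receptor of CCL2 on monocytes, was at 38.8, 35.2 and 25.1 CPM in Control and at 41.7, 31.6 and 22.6 CPM in ADISSP. The libraries of the groups interleaved, and the log2 fold change was -0.05 (SE 0.25, adjusted p = 0.891). A p above the threshold does not show that the levels were alike. Cxcr3, the receptor of CXCL9 and CXCL10 on effector T cells, was at 5.20, 7.25 and 2.59 CPM in Control and at 2.61, 2.76 and 2.41 CPM in ADISSP. Control 3 sat among the ADISSP libraries, and the log2 fold change was -0.96 (SE 0.37, adjusted p = 0.0705). It passed without Control 3 (-1.27, adjusted p = 0.00156). Ccr1 and Cxcr2 had log2 fold changes of 0.82 and -0.88. Ccr1 passed without ADISSP 3 (1.33, adjusted p = 0.0466 by edgeR), but without ADISSP 1 its log2 fold change was -0.24 (adjusted p = 0.761).

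Several ligands and receptors serve both homeostasis and inflammation. Ccl22, which dendritic cells make to attract CCR4-bearing T cells, was at 13.5, 17.0 and 4.09 CPM in Control and at 0.712, 1.32 and 0.639 CPM in ADISSP. The groups were well apart and the log2 fold change was -3.74 (SE 0.62, adjusted p = 0.00501). It was -2.24 against Control 3 alone (adjusted p = 0.00811). Cxcl16, a membrane-bound ligand of CXCR6, was at 15.6, 17.7 and 10.8 CPM in Control and at 8.55, 5.96 and 4.05 CPM in ADISSP. It fell by 1.25 on the log2 scale (SE 0.29, adjusted p = 0.0122), and did not pass without ADISSP 2 (adjusted p = 0.0549) or against Control 3 alone (-0.82, adjusted p = 0.148). Cxcl16 shares 552 bases with Zmynd15 on the opposite strand, which fell by 1.56 on the log2 scale, and the strand setting of the counting is not given. Cx3cl1, the membrane-bound fractalkine, was at 6.90, 5.88 and 4.98 CPM in Control and at 5.54, 6.73 and 7.60 CPM in ADISSP, which overlapped (log2 fold change 0.16, SE 0.21, adjusted p = 0.601).

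Ccr6, a receptor of B cells and of T helper cells, had 17.8, 18.8 and 4.36 CPM in Control and 0.0791, 0.552 and 0.142 CPM in ADISSP. It was among the largest falls, at -5.85 on the log2 scale (SE 0.88, adjusted p = 0.00454) and at -4.19 against Control 3 alone (adjusted p = 0.000789). Its ligand Ccl20 had 0 counts in every library, which allows up to 0.165 to 0.331 CPM per library. Cxcr6, a receptor of effector and resident T cells, had 7.47, 11.4 and 2.46 CPM in Control and 0.633, 2.54 and 0.710 CPM in ADISSP. ADISSP 2 was above Control 3, and the log2 fold change of -2.54 (SE 0.75, adjusted p = 0.0425) did not pass without Control 1, Control 2, ADISSP 1 or ADISSP 3 (adjusted p = 0.0914 to 0.137) or against Control 3 alone (adjusted p = 0.394). Cxcr6 lies within Fyco1 on the opposite strand, and the strand setting of the counting is not given in the sources used here, so its level is uncertain.

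Xcr1, which marks cross-presenting dendritic cells, had 4.02, 4.01 and 1.30 CPM in Control and 0.396, 0 and 0.852 CPM in ADISSP. The groups did not overlap. Its log2 fold change of -2.76 (SE 0.77, adjusted p = 0.0269) did not pass without Control 1, Control 2 or ADISSP 1 (adjusted p = 0.0816, 0.0766 and 0.104), with the replicate number as a block (adjusted p = 0.0883) or against Control 3 alone (adjusted p = 0.367). Flt3, a dendritic cell marker, fell by 2.16 on the log2 scale, and 2 of 6 dendritic cell markers fell in all. The median log2 fold change of the 6 was -0.93, and -0.20 against Control 3 alone. Cx3cr1, the fractalkine receptor of monocytes and macrophages, had 5.32, 6.15 and 2.05 CPM in Control and 2.77, 4.08 and 2.49 CPM in ADISSP. Control 3 was the lowest library of all, and the log2 fold change of -0.55 (SE 0.41) did not pass (adjusted p = 0.326); without Control 3 it was -0.91 and passed (adjusted p = 0.0146).

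Ligands of epithelia and other barrier tissues formed a further homeostatic group, of which 4 were tested. Cxcl14, which skin and stromal cells make, was at 28.8, 20.4 and 36.1 CPM in Control and at 8.78, 13.7 and 11.0 CPM in ADISSP. Control 3 was the highest library, and the log2 fold change was -1.36 (SE 0.24, adjusted p = 0.00369), and -1.71 against Control 3 alone (adjusted p = 0.0001). Ccl27a, a skin chemokine that attracts CCR10-bearing T cells, was at 2.43, 1.54 and 1.84 CPM in Control and at 10.2, 7.28 and 8.09 CPM in ADISSP. It had the largest rise of the 41 genes, with a log2 fold change of 2.13 (SE 0.26, adjusted p = 0.000418), and 2.21 against Control 3 alone (adjusted p = 0.000931). Ccl27a has near copies in the mouse, of which Ccl27b had 0 counts, and it overlaps Il11ra1 by 8 bases. Ccl25 and Ccl28 had log2 fold changes of 0.10 and 0.96 and did not pass. Ccr10, the receptor of CCL27 and CCL28, had 0.136 to 1.43 CPM, a log2 fold change of 0.86 (adjusted p = 0.371), and lies within Cntnap1 on the opposite strand, which rose by 2.37 on the log2 scale.

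Of the atypical receptors, Ackr3, which takes up CXCL12, rose. It stood at 23.4, 24.2 and 29.3 CPM in Control and at 62.2, 74.5 and 61.5 CPM in ADISSP, with every ADISSP library more than 2 times the highest control. The log2 fold change was 1.37 (SE 0.12, adjusted p = 8.13e-05), the smallest p of the 41 genes, and 1.17 against Control 3 alone (adjusted p = 0.000141). Ackr1, the carrier of chemokines across venular endothelium, stood at 6.56, 5.27 and 5.52 CPM in Control and at 1.27, 2.21 and 2.20 CPM in ADISSP. It fell by 1.62 on the log2 scale (SE 0.28, adjusted p = 0.00298) and by 1.55 against Control 3 alone (adjusted p = 0.0196). Ackr1 shares 493 bases with Cadm3, which fell by 0.66. Vwf and Pecam1, markers of blood endothelium, changed by -1.14 and -0.70, and 3 of the 5 such markers fell.

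Ackr2, a scavenger of inflammatory CC chemokines found on lymphatic endothelium, was at 5.49, 8.84 and 6.41 CPM in Control and at 2.69, 3.42 and 3.76 CPM in ADISSP. The groups did not overlap, and the log2 fold change was -1.07 (SE 0.26, adjusted p = 0.0126). It did not pass without Control 2 (adjusted p = 0.0573) or against Control 3 alone (-0.96, adjusted p = 0.0724). Markers of lymphatic endothelium fell in 5 of 6 cases, with a median log2 fold change of -1.36 (-1.03 against Control 3 alone). Their summed levels were 60.5 to 92.4 CPM in Control and 27.4 to 32.9 CPM in ADISSP. The part of these cells in the result for Ackr2 was not tested. Ackr4, a scavenger of CCL19 and CCL21, was at 0.566, 1.15 and 0.682 CPM in Control and at 0.870, 0.883 and 0.497 CPM in ADISSP, with a log2 fold change of -0.12 (SE 0.46, adjusted p = 0.856). It lies within Acad11 on the opposite strand, which rose by 1.47 on the log2 scale, so its level is uncertain.

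The 18 genes that fell differed in where Control 3 lay. In 9 of them (Ccl19, Ccl21a, Cxcl13, Ccl22, Ccr6, Ccr7, Cxcr5, Cxcr6 and Xcr1) Control 3 was at 17.5% to 32.3% of the mean CPM of Control 1 and 2, and the ADISSP mean was at 1.31% to 13.7%. In 8 (Ccl6, Ccl9, Ccl11, Cxcl12, Cxcl14, Cxcr4, Ackr1 and Ackr2) Control 3 was within 1.5-fold of that mean, at 68.0% to 147%, and the ADISSP mean was at 32.0% to 73.5%. Cxcl16 was between, at 65.1% and 37.1%. Against Control 3 alone, 6 of the first 9 and 6 of the 8 were still lower.

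**Figure D4:**
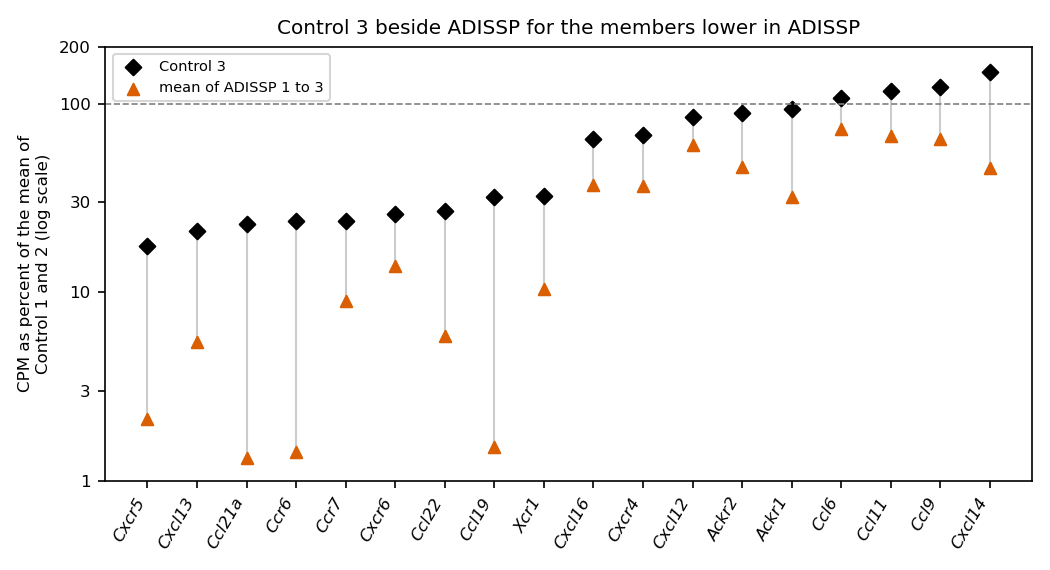
CPM of Control 3 (black) and mean CPM of the 3 ADISSP libraries (orange) as a percent of the mean of Control 1 and 2, on a log axis, for the 18 genes that fell. On the left 9 genes have Control 3 at 17.5% to 32.3% with ADISSP lower still, and on the right 8 genes have Control 3 at 68.0% or more, near or above the dashed line of 100%.

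Ligands were also set beside their receptors. Of 25 pairs known from textbooks, both partners were tested in 19. Both fell in 5 pairs (Ccl19 and Ccr7, Ccl21a and Ccr7, Cxcl13 and Cxcr5, Cxcl12 and Cxcr4, Cxcl16 and Cxcr6), and there were 0 pairs in which both rose. The pairs restate the calls given above, and Ccr7 enters with both of its ligands. Limits given above for the calls of Ccr7, Cxcr4, Cxcr5, Cxcl16 and Cxcr6 apply here too. In the pair of Cxcl12 and Ackr3 the ligand fell and the receptor rose. In 4 pairs a single partner passed: Cxcl9 rose while Cxcr3 did not pass, Ccl27a rose while Ccr10 did not pass, and Ccl6 and Ccl9 fell while Ccr1 did not pass. Neither partner passed in 9.

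**Figure D5:**
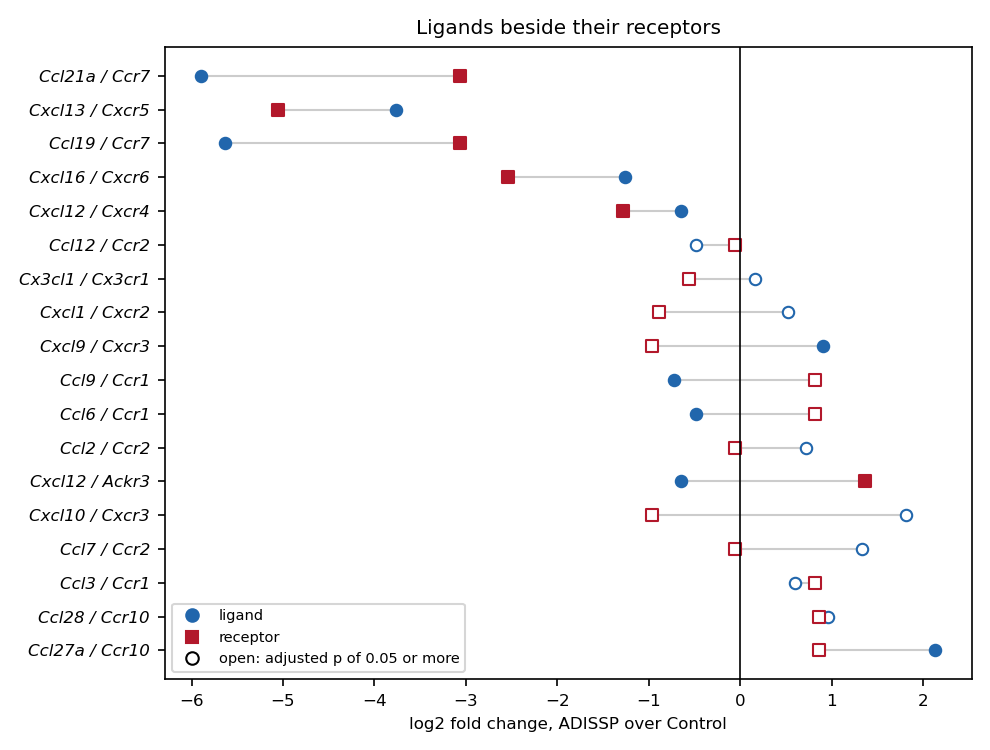
Log2 fold change (ADISSP over Control) of each ligand (circle) and its receptor (square) for 18 of the 19 pairs with both partners tested, where filled marks have an adjusted p under 0.05. The 5 pairs at the top are filled and left of 0 on both sides, and Cxcl12 with Ackr3 is the pair with filled marks on opposite sides, at -0.65 and 1.37.

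Many of these genes lie in clusters, and neighbours did not all share a call. On chromosome 11, Ccl2, Ccl7, Ccl11, Ccl12, Ccl8 and Ccl1 span 270 kb, and of the 5 tested Ccl11 fell and the others did not pass. A further cluster of 139 kb holds Ccl5, Ccl9, Ccl6, Ccl3 and Ccl4, of which Ccl9 and Ccl6 fell. The chromosome 4 cluster, 1005 kb from Ccl27a to Ccl21a, holds the largest rise and a pair of the largest falls. On chromosome 9 Cxcr6 and Xcr1 fell, while their neighbours Ccr1 and Ccr2 did not pass.

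The 21 genes not tested had too few counts in too few libraries for the filter, with 0 to 154 counts over the 6 libraries. Ccl20, Ccl21d, Ccl27b and Cxcl15 had 0 in all 6 libraries. Ccr9, the gut-homing receptor, had the most, with 57, 78 and 7 counts in Control 1, 2 and 3 and 4 counts in each ADISSP library. It overlaps Lztfl1 on the opposite strand by 23282 bases, and Lztfl1 fell by 0.37 on the log2 scale, so the level of Ccr9 is uncertain. Ccr4, the receptor of CCL22, had 17, 24 and 2 counts in Control and 0, 3 and 1 in ADISSP. Ccr8, of regulatory T cells, had 8, 13 and 0 counts in Control and 0, 0 and 1 in ADISSP, a Control level 14.9-fold higher with an exact 95% counting interval of 2.39 to 615. Control 3 was low for all 3 receptors. In the fit without a filter on low counts these 3 were lower (adjusted p = 0.00913, 0.0186 and 0.0421), in a fit over 32254 genes. Of the rest, Ccl4, Xcl1, Cxcl2, Ccr3, Ccl17, Cxcl11 and Cxcl5 had 10 to 45 counts over the 6 libraries, and the others had at most 6.

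Other genes of the chemokine pathway were read from lists. Of 5 family genes with other kinds of symbol, Ppbp, a platelet chemokine, rose from 0.905, 0.824 and 0.409 CPM in Control to 4.11, 3.31 and 3.83 CPM in ADISSP (log2 fold change 2.37, adjusted p = 0.0013). Pf4, also a platelet chemokine, fell from 11.2, 8.73 and 8.93 CPM to 4.51, 4.08 and 3.55 CPM (-1.25, adjusted p = 0.00182). Gpr182, an atypical receptor of endothelium, fell from 12.3, 13.9 and 12.6 CPM to 6.25, 5.96 and 8.02 CPM (-0.94, adjusted p = 0.00364). All 3 passed against Control 3 alone as well (3.17, -1.15 and -0.90, with adjusted p of 0.00169, 0.0168 and 0.032). Ccrl2 and Cmklr1, which bind chemerin, had log2 fold changes of 0.17 and 0.34 and did not pass.

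Of 28 genes that carry signals from chemokine receptors, 16 fell (57.1%, against 16.5% of all genes) and 3 rose (10.7%, against 18.5%), with a median log2 fold change of -0.85. Against Control 3 alone 7 of the 28 were lower and 3 higher, with a median of -0.41. The smallest p-values were those of the 3 that rose: Rgs2, a brake on G protein signalling, rose by 2.19, Grk3, a receptor kinase, by 1.48 and Plcb3, a phospholipase, by 0.74, and these were also higher against Control 3 alone (2.13, 1.82 and 0.59). Among the 16 that fell were Dock2 (-1.94), Rac2 (-1.82) and Coro1a (-1.74), which act on the cytoskeleton of leukocytes and are named here after their values were seen. Against Control 3 alone they changed by -0.93, -0.63 and -0.58 (adjusted p = 0.00771, 0.0525 and 0.0275), and none of these 3 passed without Control 1 or Control 2 (adjusted p up to 0.119 over the libraries left out).

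Of 11 genes tested in the lymphotoxin pathway, which induces the lymph node chemokines, 5 fell by edgeR (45.5%, against 16.5% of all genes). By edgeR 0 rose (against 18.5% of all genes) and by DESeq2 0 were higher. At an unadjusted p under 0.05 by edgeR 1 was higher (Tnfrsf1a, log2 fold change 0.33). The median log2 fold change of the 11 was -0.62, and -0.17 against Control 3 alone. Tnfrsf11a, the receptor RANK, fell from 16.7, 17.2 and 16.0 CPM in Control to 7.28, 10.7 and 5.68 CPM in ADISSP (-1.09, adjusted p = 0.00552, and -1.05 against Control 3 alone). Nfkb2 and Relb, the transcription factors of the pathway, changed by -0.62 and -0.64 (adjusted p = 0.0186 and 0.0235), but neither passed without Control 1 or Control 2 or against Control 3 alone (adjusted p = 0.323 and 0.590).

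Of 9 genes tested in the interferon gamma pathway 1 rose (11.1%, against 18.5% of all genes) and 2 fell (22.2%, against 16.5%), not far from the shares of all genes. Gbp2 rose by 0.64 (adjusted p = 0.0403) while Ifngr2 and Jak1 changed by -0.31 and -0.38 (adjusted p = 0.0292 and 0.0314). All 3 calls were lost without Control 1 (adjusted p of these genes up to 0.134 over the libraries left out), and none of the 3 passed against Control 3 alone (0.75, -0.38 and -0.18, with adjusted p of 0.328, 0.0903 and 0.340). Of 10 tested inducers of inflammation 3 fell and 1 rose, and against Control 3 alone 1 was lower. Tlr4, the receptor of bacterial endotoxin, fell from 47.1, 47.7 and 46.0 CPM in Control to 31.4, 22.5 and 26.8 CPM in ADISSP (-0.80, adjusted p = 0.00186, and -0.77, adjusted p = 0.00889, against Control 3 alone). Myd88, its adaptor, rose by 0.60 (adjusted p = 0.0221, and up to 0.0681 with a library left out) and did not pass against Control 3 alone (0.71, adjusted p = 0.0609). Tnf changed by -1.81 (adjusted p = 0.0267, and up to 0.0964 with a library left out), and by -0.41 against Control 3 alone (adjusted p = 0.767).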

How the data were processed

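RNA of the 6 libraries was extracted with TRIzol, cleared of ribosomal RNA (KAPA RNA HyperPrep with RiboErase) and sequenced on a NovaSeq X, in a single batch (batch 1) per the labels. Alignment by the authors used STAR on mm39 (GRCm39), and genes were counted with featureCounts, per the submitters' processing notes. Tool versions and the strand setting were not given in the sources used here. Raw whole-number counts per gene make up the table of counts the authors deposited. The TPM table deposited by the authors holds the 23524 genes with 10 or more counts over the 6 libraries.

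Counts were tested in R 4.3.3 with edgeR 4.0.16: filterByExpr by group, TMM factors (1.05 to 1.18 in Control, 0.88 to 0.90 in ADISSP), a robust quasi-likelihood fit of ADISSP against Control, 3 libraries each, and Benjamini-Hochberg adjustment over all 17320 genes at a threshold of 0.05. The words rose and fell are used for genes past it. CPM are counts per 1000000 of each library's TMM-scaled total. Without stated separate cultures or litters, p-values measure the spread between these libraries. Intervals and floors cover counting error only. No pair of libraries agreed within sampling noise (chi-square per degree of freedom at least 8.03). The classes, pathway lists and cell type markers were chosen by hand with earlier results of these data known. Library values are given for genes past the threshold and for a fixed set of well-known ones, and in each pathway list the 3 genes with the smallest p are named. Levels between genes are compared in TPM. Alternatives were DESeq2 1.42.0, library totals without TMM factors, 2 other filters on low counts, limma 3.58.1 on log2(TPM + 1) and log2(TPM + 0.1), a replicate block, each library left out, and Control 3 as the only control. The test was tried on simulated data. Promoters were read from RefSeq (GRCm38.p6) by symbol. Values of some single genes are not reported here; they remain in the counts of genes and the sums over lists.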

Additional observations from a re-analysis of the deposited data

How the results depend on the processing

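None of the 41 tested chemokine and receptor genes changed sign past the threshold under any alternative run. The 7 genes of lymph node homeostasis kept their negative sign in all of these runs. Pathway genes and cell type markers were not checked in this way. With library totals in place of TMM factors the median of all genes moved to -0.36, and 1756 genes rose and 6600 fell (38.1% lower). Of the 18 inflammatory genes 5 were lower. With log2(TPM + 1) it moved to -0.51, and 10811 genes passed, 1288 higher and 9523 lower. With log2(TPM + 0.1) the counts were 10746, 1279 and 9467, and with either pseudocount 6 inflammatory genes were lower and 0 higher by limma. Under log2(TPM + 1) the median of the inflammatory genes was -0.53 and 6 of the 18 changed sign, none of them past the threshold, so no direction is read from that class. DESeq2 put 2 of the 18 inflammatory genes higher, against 17.5% of all genes. With Control 3 as the only control 3190 genes passed, 1886 higher and 1304 lower, and 15 pathway genes against 34.

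Leaving out each library in turn gave 3823 (without Control 1) to 8517 (without Control 3) changed genes, 1563 to 4212 lower, 1 (without ADISSP 3) to 6 (without Control 3) inflammatory genes lower, 1 to 2 higher, and 16 (without Control 1) to 47 (without Control 3) pathway genes. The chemokine and receptor genes that fell were 13 without ADISSP 1 and 24 without Control 3. The replicate numbers are shared by the groups, but deviations of same-numbered libraries correlated by 0.035, 0.080 and 0.050, so the numbers were not taken to pair them, although each library correlated best with its own number. With the replicate block 5541 genes passed and 21 chemokine and receptor genes. Genes with fewer than about 10 counts could not be resolved at this depth.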

Other observations

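Ccl19-ps2, a noncoding copy of Ccl19 on chromosome 4 that the name rule leaves out, had 10, 14 and 1 counts in Control 1, 2 and 3 and 0 in every ADISSP library. The inflammatory ligands summed to 587, 623 and 444 TPM in Control and to 411, 284 and 260 TPM in ADISSP. In CPM, the scale of the calls, the group sums overlapped. They ran from 176 to 198 CPM for Control (mean 190) and from 154 to 234 CPM for ADISSP (mean 187). On log2(TPM + 1) the median of all genes moved to -0.51, so no fall of this class is read from the TPM sums.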
